A study of Mus musculus with 15 samples.

Results

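The 9 genes described here act in reticulocyte maturation and were measured in whole blood of mice. The mice were untreated, or belonged to groups given checkpoint blockade for oral cancer with early or late neck surgery. The study's legend and text differ on whether the late surgery preceded the blood draw, so that group is named by its label. The genes are Bnip3l, Ulk1, Trim58, Trim10, Ube2o, Fbxo7, Xpo7, Mxi1 and Ube2l6, and they were chosen by symbol for their known parts in clearing organelles and remodelling proteins in maturing red cells, 9 of the 55416 gene identifiers in the files. No measured value entered the choice, although it was made with earlier results of these data known. After late neck dissection (ND), 8 of the 9 genes were called lower than after early ND, against 2.48% of all 13315 genes tested. These 8 were lower by between 1.63-fold for Mxi1 and 7.41-fold for Trim10, while Ulk1 lay the other way and was not called. Other erythroid genes were lower too, 12 of 17 tested being called. No member was called among libraries rich in 18S ribosomal RNA, which were fewer, or with the hemoglobin share of counts as a covariate. That share did not overlap between late and early ND. How many of all genes these fits called is not given here, so the lost calls are not a result about these 9 genes. The direction of Xpo7 and Mxi1, the 2 with the smallest differences, held with TMM normalisation but turned when counts were scaled by library totals. None of the 9 was called different between early ND and untreated mice by the same test, which called 0% of 12151 genes.

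A reticulocyte is a red cell that has lost its nucleus but still holds mitochondria, ribosomes and the RNA it inherited from its nucleated precursor. As it matures, autophagy removes the mitochondria, and the ubiquitin-proteasome system destroys most proteins other than hemoglobin. Mature red cells make no RNA, so erythroid transcripts in blood come largely from reticulocytes and from any nucleated precursors present.

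The RNA came from whole blood of C57BL/6 mice (females aged 4 to 6 weeks at transplantation, by the study's methods), 15 libraries from 15 mice, 5 in each of 3 groups. In the early ND and late ND groups, mice bearing 4MOSC1, a tobacco-signature mouse line of oral squamous cell carcinoma, received 2 doses of αCTLA-4 (an antibody against the T cell checkpoint receptor CTLA-4), followed by surgical removal of the neck lymph nodes. The labels give 10 days of 4MOSC1 growth in the tongue for every sample, the untreated ones included, and give those 5 mice neither αCTLA-4 nor ND. The study asked how the order of immunotherapy and lymph node surgery alters the peripheral immune response. Counted from transplantation, the study's figure legend gives day 6 for early ND, day 10 for blood and day 11 for late ND, but its text has the blood drawn after late ND, so "after late ND" below is the name of a group and not a statement of timing.

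The counts that fell on genes and the hemoglobin share moved with the groups. Between 5527108 and 7182346 counts fell on genes in early ND libraries, between 7849602 and 13924361 in late ND libraries and between 5862888 and 10796099 in untreated ones. Over all libraries, 75.6 to 88.1% of read pairs were not assigned to a gene. Pairs without a unique alignment made up 66.4 to 75.2% in early ND, 44.1 to 57.9% in late ND and 64.8 to 73.1% in untreated libraries. The 4 adult hemoglobin genes (Hba-a1 and Hba-a2 for the alpha chain, Hbb-bs and Hbb-bt for the beta chain) took 38.3 to 64.1% of gene counts after early ND, 14.9 to 29.3% after late ND and 31.6 to 61.7% in untreated mice, which marks every library as blood. The 3 libraries untreated 2, late 2 and late 3 were poor in the 18S ribosomal RNA gene Rn18s-rs5, at 313 to 766 CPM (counts scaled to a common library total) against at least 13402 in each of the others. In bulk blood, fewer reticulocytes and less of a transcript per reticulocyte cannot be told apart. With 1 library per mouse, the p-values below measure the spread between mice.

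Levels below are in CPM after TMM normalisation, a scaling that assumes that most genes do not differ between libraries, and are listed from mouse 1 to mouse 5 of each group. Differences are log2 fold changes (log2FC) with their standard error (SE) from edgeR's quasi-likelihood test, fitted to the 10 libraries of the 2 groups compared. The adjusted p is by Benjamini-Hochberg over all genes tested, and a gene is called when it is under 0.05. The groups of a gene are said not to overlap when every mouse of one lies below every mouse of the other.

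The genes that clear mitochondria were represented by Bnip3l and Ulk1. Bnip3l, also called NIX, is the mitochondrial outer membrane receptor through which autophagosomes take up mitochondria in reticulocytes. It lies on the minus strand of chromosome 14 of GRCm39, from 67222678 to 67246356. Its level was 3761, 1209, 2888, 1757 and 709 CPM in the untreated mice, and 998, 1769, 1353, 3961 and 2916 CPM after early ND. After late ND it was 570, 481, 401, 550 and 308 CPM, so that every late ND mouse lay below every mouse of both other groups. The group means, with n = 5 each, were 462 ± 109 CPM (SD) for late ND against 2199 ± 1221 CPM (SD) for early ND, a log2FC of -2.29 (SE 0.37, edgeR adjusted p = 0.0126).

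Ulk1, the kinase that starts autophagosome formation, lies on the minus strand of chromosome 5, from 110931496 to 110957995. It had 39.2, 57.8, 24.6, 51.2 and 51.4 CPM in the untreated mice and 38.7, 28.6, 57.5, 31.2 and 36.5 CPM after early ND. After late ND it had 57.0, 48.2, 72.3, 70.8 and 66.9 CPM. Only 3 of the 5 late ND mice were above every early ND mouse, because early 3 reached the level of the late ND mice. The log2FC between late and early ND was 0.67 (SE 0.19), with an edgeR adjusted p of 0.0570 that missed the threshold and an unadjusted p of 0.00358. DESeq2's Wald test called Ulk1 higher in this comparison. Ulk1 is known to be expressed in most cell types.

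Trim58 and Trim10 encode proteins of the tripartite motif family. Trim10 is needed for terminal differentiation of erythroid cells, and Trim58 is a ubiquitin ligase that acts on dynein, the microtubule motor, as the nucleus is expelled. Their promoters are shown because both genes are known for erythroid expression and both promoters hold a GATA motif, the sequence bound by the erythroid factor GATA1. The promoter of Ube2o, described below, is shown as the contrast, with KLF motifs (the CACC-box type of sequence bound by KLF1) and no GATA motif. Each sequence is the 250 bases before the start of the gene's canonical transcript, read from the GRCm39 reference with GENCODE M39 in the direction of the gene, with motif matches on either strand in capitals.
Trim10, chr17:37180156-37180405, plus strand: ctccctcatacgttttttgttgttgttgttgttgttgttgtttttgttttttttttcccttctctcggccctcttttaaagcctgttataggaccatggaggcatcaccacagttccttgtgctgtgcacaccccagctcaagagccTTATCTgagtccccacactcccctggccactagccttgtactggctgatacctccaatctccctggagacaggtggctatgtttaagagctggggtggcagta
Trim58, chr11:58530971-58531220, plus strand: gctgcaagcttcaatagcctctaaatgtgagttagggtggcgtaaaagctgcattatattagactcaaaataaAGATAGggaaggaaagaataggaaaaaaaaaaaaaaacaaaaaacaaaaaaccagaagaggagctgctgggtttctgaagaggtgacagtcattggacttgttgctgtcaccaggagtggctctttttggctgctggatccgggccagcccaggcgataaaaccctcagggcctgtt
Ube2o, chr11:116472378-116472627, minus strand: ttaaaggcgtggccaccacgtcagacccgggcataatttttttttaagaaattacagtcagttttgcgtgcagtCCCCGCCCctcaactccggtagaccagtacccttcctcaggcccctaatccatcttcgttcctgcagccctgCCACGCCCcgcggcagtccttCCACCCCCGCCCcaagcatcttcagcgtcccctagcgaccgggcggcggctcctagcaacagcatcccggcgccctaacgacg
A match to AGATAA, or to the same letters with T first, with G last or with both, was found in the windows of Trim10, Trim58 and Ulk1, 3 of 9, against 20.6% of the 11289 protein-coding genes among the genes tested. The KLF motif CCNCNCCC was found in 6 of 9, those of Bnip3l, Ulk1, Ube2o, Xpo7, Mxi1 and Ube2l6, against 57.2% of all. Neither the interferon-stimulated response element (3.32% of all) nor the E-box CACGTG, to which MYC and MXI1 bind with MAX (8.08% of all), was present in any of the 9 windows. The windows of Ube2l6 (from 84628922) and Mxi1 (from 53317594) lie inside the annotated genes, which start at 84628630 and 53298852. Sequence before those outermost starts was not searched. These matches describe letters in a short window and not binding.

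Trim10, on the plus strand of chromosome 17 from 37180406 to 37188725, had the widest spread between early ND mice of the 9 genes, at 42.9, 142, 142, 366 and 459 CPM. It was 294, 79.0, 266, 218 and 77.0 CPM in untreated mice and 46.2, 30.4, 17.9, 45.8 and 20.4 CPM after late ND. Late 1 and late 4 lay just above early 1, and every late ND mouse lay below every untreated mouse. With a log2FC of -2.89 (SE 0.55, edgeR adjusted p = 0.0178), it had the largest difference between late and early ND among the 9 genes.

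Trim58, on the plus strand of chromosome 11 from 58531221 to 58546435, was scarce, with 9 to 37 counts per library. It had 7.38, 2.24, 5.38, 4.20 and 1.44 CPM in untreated mice, 1.77, 6.05, 2.19, 7.55 and 3.63 CPM after early ND, and 1.01, 0.977, 1.54, 1.85 and 1.7 CPM after late ND. Late 4 was above early 1, and the others were below every early ND mouse. Its log2FC between late and early ND was -1.54 (SE 0.40, edgeR adjusted p = 0.0469), close to the threshold.

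The genes of ubiquitin-dependent protein turnover were Ube2o, Ube2l6 and Fbxo7. Ube2o is a hybrid ubiquitin-conjugating enzyme and ligase that marks ribosomal and other proteins for destruction in reticulocytes. It lies on the minus strand of chromosome 11, from 116428501 to 116472377. It had 1443, 211, 454, 538 and 159 CPM in untreated mice, 203, 847, 434, 695 and 482 CPM after early ND, and 170, 100.5, 108, 163 and 123 CPM after late ND. Every late ND mouse was below every early ND mouse, though untreated 5 lay below late 1 and late 4. The log2FC between late and early ND was -2.03 (SE 0.32, edgeR adjusted p = 0.0126).

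Ube2l6 encodes the conjugating enzyme that passes ISG15, an interferon-induced ubiquitin-like protein, to its targets. It lies on the plus strand of chromosome 2, from 84628630 to 84640783. It was the most abundant of the 9 genes, also per length, at 2092 ± 1125 CPM per kilobase of exon in the early ND mice against 448 ± 137 in the late ND mice (SD, n = 5 each). Its CPM were 11471, 2794, 6713, 4757 and 2353 in untreated mice, 2884, 5134, 4208, 11116 and 5968 after early ND and 1724, 1161, 1068, 1555 and 766 after late ND. No late ND mouse reached the lowest mouse of either other group, and the log2FC between late and early ND was -2.26 (SE 0.39, edgeR adjusted p = 0.0126).

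Fbxo7 is the substrate-binding subunit of an SCF ubiquitin ligase and also binds the proteasome regulator PI31, which the gene Psmf1 encodes. It lies on the plus strand of chromosome 10, from 85857690 to 85887737. It had 45.4, 20.9, 42.2, 32.8 and 16.0 CPM in untreated mice, 17.5, 35.8, 22.1, 59.1 and 47.4 CPM after early ND and 15.8, 14.996, 10.0, 15.4 and 14.1 CPM after late ND. Every late ND mouse lay below every mouse of both other groups, the gap to untreated 5 being the smallest. The log2FC between late and early ND was -1.39 (SE 0.29, edgeR adjusted p = 0.0241). Of the exon bases of Fbxo7, 25.2% lie opposite other genes, mostly Syn3, which had 221 counts in all 15 libraries together, and since the strand setting of the counting was not given, reads of the 2 strands may be mixed there.

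The genes that act on the nucleus, Xpo7 and Mxi1, had the smallest of the differences that were called. Xpo7, a nuclear export receptor needed for chromatin condensation and enucleation in erythroblasts, lies on the minus strand of chromosome 14, from 70891686 to 71004113. It had 89.7, 34.6, 51.2, 61.2 and 34.1 CPM in untreated mice, 31.6, 49.5, 43.0, 73.8 and 62.6 CPM after early ND and 32.3, 29.6, 28.8, 27.1 and 32.3 CPM after late ND. The late ND mice varied least of all for this gene, by 1.19-fold from lowest to highest, and early 1 lay among them. The log2FC between late and early ND was -0.82 (SE 0.19, edgeR adjusted p = 0.0354) with TMM normalisation, but 0.14 (SE 0.25) when counts were scaled by library totals.

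Mxi1, a MAX-binding repressor that opposes MYC, lies on the plus strand of chromosome 19, from 53298852 to 53364241. It had 234, 189, 214, 178 and 138 CPM in untreated mice, 175, 168, 179, 218 and 265 CPM after early ND and 120, 110, 144, 124 and 136 CPM after late ND. Every late ND mouse was below every early ND mouse, while late 3 was above untreated 5. The log2FC between late and early ND was -0.70 (SE 0.16, edgeR adjusted p = 0.0290) with TMM normalisation, and 0.20 (SE 0.26) when scaled by library totals.

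**Figure D1:**
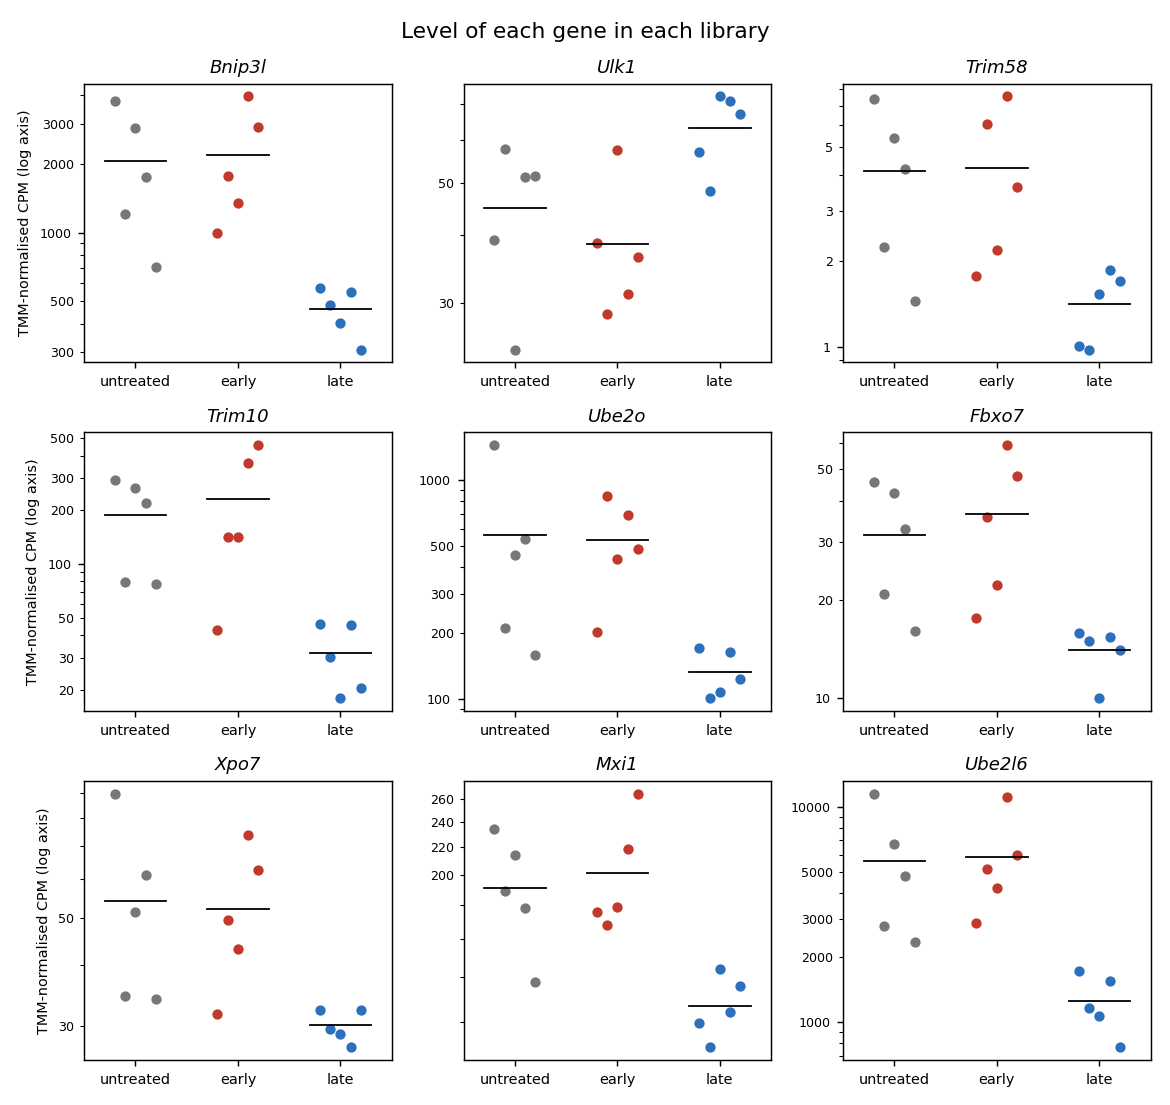
Level of each gene in each of the 15 libraries, in TMM-normalised CPM on a log axis, with 1 point per mouse and a bar at the group mean. The 5 late ND points lie below all 5 early ND points for Bnip3l, Ube2o, Fbxo7, Mxi1 and Ube2l6, and the late ND points of Ulk1 lie mostly above the others, though scaling by library totals turned the difference of Mxi1.

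Between late and early ND, 8 of the 9 genes were called lower with TMM normalisation, and 0 were called higher. Over all 13315 genes tested in this comparison, edgeR called 2.48% lower and 2.5% higher. Among the 9, Bnip3l, Ube2o, Fbxo7, Mxi1 and Ube2l6 did not overlap between the groups and were lower, a pattern found for 2.2% of all genes. The median log2FC was -1.54 over the 9 genes, 0.014 over all genes tested, and -2.18 over 17 other erythroid genes tested, of which 12 were called lower. That erythroid list holds genes such as Alas2 and Slc4a1, and the summed level of the 19 genes found was 7585 to 33942 CPM after early ND and 2655 to 5541 CPM after late ND. In the same libraries the neutrophil list, 11 genes such as S100a8 and Ly6g with none at 0 in all libraries, summed to 2526 to 8037 CPM after early ND and 6494 to 16487 CPM after late ND, and its part in the result was not tested.

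These calls depended on a few choices. Scaling by library totals, which raised the median log2FC of all genes to 0.86, gave 4 genes called lower (Bnip3l, Trim10, Ube2o and Ube2l6) and Ulk1 called higher, and ended the calls of Trim58 (log2FC -0.60), Fbxo7 (-0.40), Xpo7 and Mxi1, among 137 genes lower and 8908 higher in all. No member was called among the libraries rich in 18S sequence (all 8 still lower, unadjusted p from 0.000841 to 0.0156) or with the hemoglobin share as a covariate, which does not overlap between these groups. The number of all genes called with that subset or that covariate is not given here. Leaving out early 4 or late 3 left 3 calls, late 4 or late 5 left 4 and late 1 left 5. Over all genes, leaving out a mouse gave 106 to 553 called lower and 36 to 1057 higher. In each of those fits the 8 genes stayed lower at an unadjusted p under 0.05 by edgeR.

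The comparison with untreated mice used the same late ND libraries and so is not independent of the first. Late ND mice had 6 of 9 genes called lower, against 2.01% of the 13547 genes tested, and 0 called higher, against 0.989%. These were Trim10, with a log2FC of -2.59 (SE 0.43, edgeR adjusted p = 0.0242), Ube2l6 at -2.21 (SE 0.44), Bnip3l at -2.21 (SE 0.40), Ube2o at -2.13 (SE 0.51), Fbxo7 at -1.18 (SE 0.26) and Mxi1 at -0.63 (SE 0.15). Trim58 (log2FC -1.48, SE 0.41, edgeR adjusted p = 0.0802) and Xpo7 (log2FC -0.88, SE 0.24, edgeR adjusted p = 0.0693) missed the threshold, as did Ulk1 (log2FC 0.43, SE 0.20, edgeR adjusted p = 0.296). For Bnip3l, Trim10, Fbxo7, Xpo7 and Ube2l6 every late ND mouse lay below every untreated mouse, a pattern of 2.27% of all genes. With library totals the log2FC of Xpo7 was 0.20, that of Mxi1 0.35 and that of Fbxo7 -0.11, none of them called, as that scaling moved the median of all genes to 0.91. None of the 9 was called when untreated 3 or any 1 late ND mouse was left out, and 3 were called without untreated 1 or untreated 4. Over all genes, leaving out a mouse gave between 0 and 409 called lower and between 0 and 184 higher. In each of those fits the 8 genes other than Ulk1 stayed lower at an unadjusted p under 0.05 by edgeR. None of the 9 was called among the libraries rich in 18S sequence or with the hemoglobin share as a covariate, and how many of all genes were called there is not given here.

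Between early ND and untreated mice no member was called by edgeR, which called 0% of 12151 genes in either direction. No member had an unadjusted p under 0.05, which 2.33% of all genes had on the lower side and 2.11% on the higher, and DESeq2 called 0 members and 1 gene. The log2FC ran from -0.22 for Ulk1 (SE 0.23, edgeR adjusted p = 0.947) to 0.31 for Trim10 (SE 0.56, edgeR adjusted p = 0.968). The 95% intervals were wide. That of Ube2l6 was -1.06 to 1.19, that of Bnip3l -0.99 to 1.2 and that of Trim10 -0.98 to 1.61, so differences of that size would not have been detectable between 5 mice and 5. The narrowest interval was that of Mxi1, from -0.32 to 0.50.

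**Figure D2:**
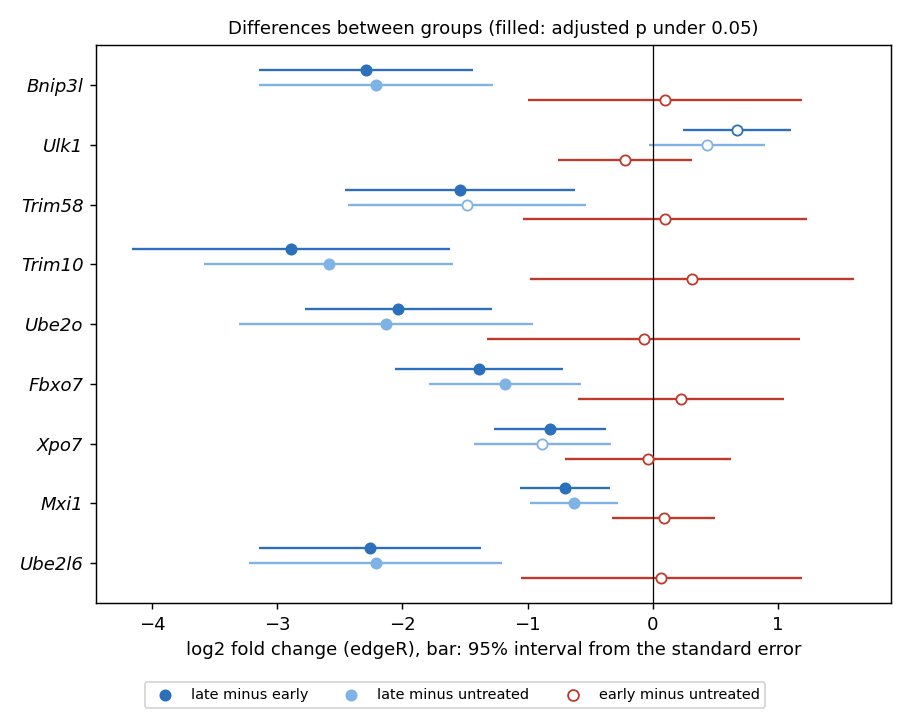
Log2FC of each gene in the 3 comparisons (edgeR, TMM normalisation), with bars for the 95% interval from the SE and filled points for an adjusted p under 0.05. Both comparisons of late ND lie left of 0 for all genes but Ulk1, from -2.89 to -0.63, and the comparison of early ND with untreated mice straddles 0 for all 9. Scaling by library totals moved Xpo7 and Mxi1 to the right of 0 in both.

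The spread between mice was wide. For the 8 genes that were lower after late ND, the highest and lowest mouse differed by 1.7- to 9.07-fold in untreated mice, 1.57- to 10.7-fold after early ND and 1.19- to 2.59-fold after late ND. The erythroid list was spread alike, its summed level ranging from 7348 to 39347 CPM in untreated mice, 7585 to 33942 CPM after early ND and 2655 to 5541 CPM after late ND. Untreated 1 was highest and untreated 5 lowest for 8 of 8 genes, and early 1 was lowest for 7 and early 4 highest for 5 of 8. After late ND, late 1 was highest for 6 of 8, and late 2 was lowest for 3 of 8. These spreads and orders hold for TMM normalisation. Mxi1 had 603 of 5862888 gene counts in untreated 1 and 2695 of 10796099 in untreated 2. By library totals, untreated 1 thus lay below untreated 2 for Mxi1. Per kilobase of exon, the order of mean levels after early ND was Ube2l6, Bnip3l (400 ± 222 CPM per kilobase, SD, n = 5), Trim10 (94.6 ± 71.6), Ube2o (92.2 ± 43.0), Mxi1 (27.7 ± 5.60), Ulk1 (5.17 ± 1.53), Fbxo7 (2.53 ± 1.2), Xpo7 (2.46 ± 0.78) and Trim58 (0.775 ± 0.457). Of the neighbours in that order, Trim10 and Ube2o, and Fbxo7 and Xpo7, differed by less than their spread. The length used was that of all annotated exons merged, 14400 bases for Fbxo7 and 21179 for Xpo7, and the order depends on it. Without division by length, the early ND mean of Xpo7 was 52.1 CPM against 38.5 CPM for Ulk1. Together the 9 genes took 0.516 to 0.871% of gene counts after early ND, 0.241 to 0.381% after late ND and 0.354 to 0.763% in untreated mice.

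To see which other transcripts the genes followed within groups, the log2 CPM of each was correlated over the 15 libraries after each group's mean was removed. These correlations describe 15 libraries that share their depth and cell mixture. Trim10 (Pearson r = 0.95), Bnip3l (0.94), Fbxo7 (0.94), Xpo7 (0.93), Ube2l6 (0.92) and Ube2o (0.88) followed the mean of the erythroid list closely, Trim58 (0.80) less so, and Mxi1 (0.65) followed the platelet list (0.76) as well. Ulk1 stood apart, with r = -0.44 for the erythroid list and 0.83 for the neutrophil list. Among the 8 genes other than Ulk1, the 28 pairs had r from 0.49 to 0.96 (median 0.81), and Ulk1 had r from -0.62 to -0.22 with each of the 8.

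The 3 genes most like each member in this measure were taken from 9513 genes. Bnip3l was nearest to Bola3 (r = 0.99), Iscu and Mkrn1, of which Bola3 and Iscu serve iron-sulfur cluster assembly. Ube2l6 was nearest to Slc25a39 (r = 0.99), a mitochondrial carrier, Isca1 and Bpgm, the enzyme that makes bisphosphoglycerate in red cells. Among the genes nearest to Trim10 were Prxl2a (r = 0.98) and Car2, a carbonic anhydrase. Ube2o was nearest to Slc25a37 (r = 0.96), the mitochondrial iron importer mitoferrin, Epb41, a membrane skeleton protein, and Tent5c. Fbxo7 was nearest to Ubac1 (r = 0.98), Txnrd2 and Smap1, and Xpo7 to Tmcc2 (r = 0.97), Itsn1 and Slc7a5. Trim58 was nearest to Cntd1 (r = 0.93), Foxo4 and Btg3, and Mxi1 to Atp5if1 (r = 0.93), Nadk2 and Cd59a. Ulk1 was nearest to Kdm6b (r = 0.96), a histone demethylase, Adam19 and Akna.

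**Figure D3:**
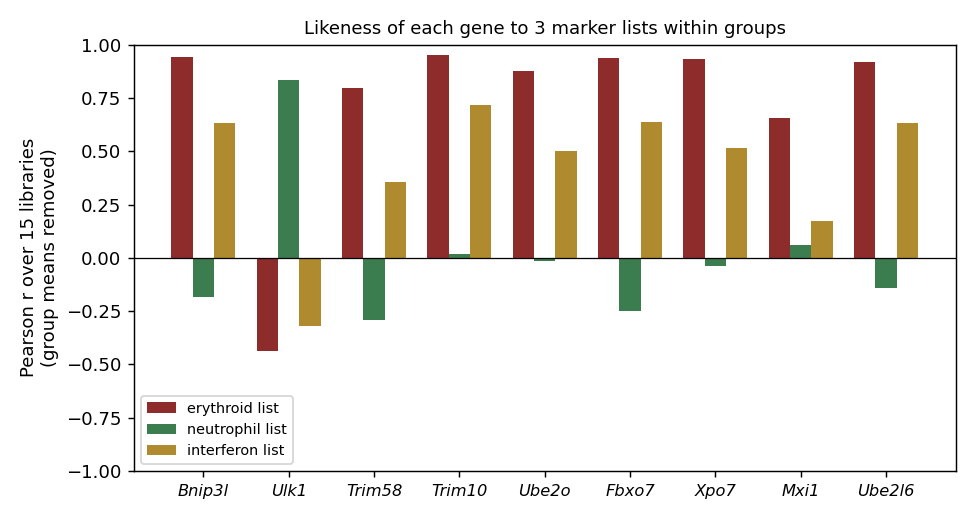
Pearson r of each gene's log2 CPM with the mean of the erythroid, neutrophil and interferon lists over 15 libraries, after group means were removed. The erythroid bars are the tallest for 8 genes, from 0.65 to 0.95, and Ulk1 has -0.44 for the erythroid and 0.83 for the neutrophil list.

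Whether the 9 genes differed more or less than other erythroid transcripts was asked by scaling each library to the mean of 19 erythroid genes, none of them a member or a hemoglobin gene. On this scale 91% of all genes tested were called higher after late ND and 0.113% lower, with a median log2FC of 1.5. Relative to those 19 genes Bnip3l differed by -0.50 (SE 0.40, edgeR adjusted p = 0.218), Ube2l6 by -0.54 (SE 0.39, edgeR adjusted p = 0.171), Ube2o by -0.34 (SE 0.42), Trim58 by 0.20 (SE 0.54) and Fbxo7 by 0.36 (SE 0.44), none of which was called. Trim10 was called lower still, by -0.96 (SE 0.43, edgeR adjusted p = 0.0291). Ulk1 was called higher, by 2.12 (SE 0.45, edgeR adjusted p = 3.78e-05), as were Mxi1 by 0.89 (SE 0.42, edgeR adjusted p = 0.0408) and Xpo7 by 0.87 (SE 0.43, edgeR adjusted p = 0.0491), both by less than the median gene.

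Library by library, the log2 ratio of Bnip3l to the erythroid mean was 5.81 to 6.38 after early ND and 5.30 to 5.70 after late ND. That is a small difference without overlap on the lower side, found for 0.128% of all genes. This scale moves most genes up, with 91% called higher, so that share cannot show Bnip3l to be unusual. The fit on this scale did not call Bnip3l, and its ratio was not compared with those of single erythroid genes. That of Ulk1 was -0.60 to 1.61 after early ND and 2.24 to 3.16 after late ND, without overlap on the higher side, as for 45.6% of all genes. Trim10, at 1.76 to 3.30 after early ND and 1.15 to 2.06 after late ND, overlapped, as did Mxi1 and Xpo7. The calls of Trim10, Mxi1 and Xpo7 on this scale were not stable. With the median of the erythroid genes 2 of the 4 calls were left, among the libraries rich in 18S sequence 1, and with a mouse left out in turn between 1 and 4.

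**Figure D4:**
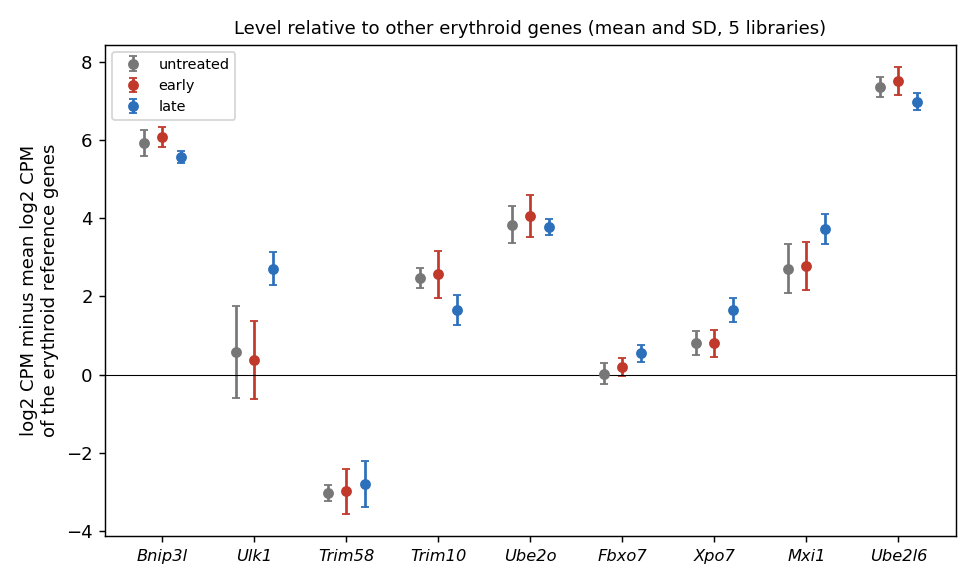
Log2 CPM of each gene minus the mean log2 CPM of 19 erythroid genes, as mean and SD over the 5 libraries of each group. Early ND and untreated means lie close together for all 9 genes, and the late ND mean is higher for Ulk1 (2.71 against 0.37 after early ND), Mxi1 (3.73 against 2.78) and Xpo7 (1.66 against 0.79) and lower for Trim10 (1.65 against 2.57).

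The partners of the 9 genes were taken as 8 lists, written by their roles and with earlier results of these data known. They hold 128 genes, of which 125 were tested. After late ND, 14 were called lower and 3 higher than after early ND, with 108 not called. Over all 13315 genes tested, 2.48% were called lower and 2.5% higher, the shares to set beside each list below. These counts hold for TMM normalisation. Library totals gave 5 partner genes lower and 98 higher, among 137 lower and 8908 higher of all genes. Among 39 autophagy genes tested, 8 were lower and 2 higher, with a median log2FC of 0.0035. Those with the smallest p were Gabarapl2, an ATG8 protein that coats autophagosomes (log2FC -1.81, SE 0.27, edgeR adjusted p = 0.0124), Fundc2, a mitochondrial outer membrane protein (-1.73, SE 0.27), Becn1, a subunit of the lipid kinase complex that nucleates autophagosomes (-1.06, SE 0.17), and Atg9a, a lipid scramblase of autophagosome precursors, which was higher (0.93, SE 0.15). The level of Gabarapl2 was 430 ± 178 CPM in early ND mice against 126 ± 16.5 CPM in late ND mice (SD, n = 5 each).

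Among the ubiquitin lists, few genes were called. Of 12 genes of Ube2h and its CTLH ligase, Ranbp10 (log2FC -0.77, SE 0.18), Ypel5 (-0.66, SE 0.16) and Rmnd5a (-0.64, SE 0.16) were called lower, and the median was -0.00063. Psmd4, a ubiquitin receptor of the proteasome cap, was the 1 lower gene of 32 proteasome genes (-0.82, SE 0.19, edgeR adjusted p = 0.0328), whose median was 0.035. Among the partners of Fbxo7, 1 of 5 was lower, Psmf1 (-1.53, SE 0.27, edgeR adjusted p = 0.0126), while Skp1 (-0.25), Cul1 (-0.034) and Rbx1 (-0.078), the other subunits of the SCF ligase, were not called.

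Of the 5 partners of Ube2l6, 1 was called. Isg15, the modifier that UBE2L6 conjugates, was lower after late ND, at 58.2 ± 29.4 CPM against 295 ± 228 CPM in early ND mice (SD, n = 5 each; log2FC -2.38, SE 0.53, edgeR adjusted p = 0.0285). The activating enzyme Uba7 (-0.078), the ligases Herc6 (-0.40) and Trim25 (0.27) and the protease Usp18 (-0.71) were not called. Of 15 tested interferon-response genes that hold neither Ube2l6 nor Isg15, 2 were called lower, with a median log2FC of -0.37.

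In the MAX network of Mxi1, Mnt, another MAX-binding repressor, was the 1 gene called of 9, and it was higher (log2FC 0.46, SE 0.11, edgeR adjusted p = 0.0416), while Myc (-0.19) and Max (-0.025) were not called. Of 10 other nuclear transport genes 0 were called at an adjusted p under 0.05 by edgeR, 1 having an unadjusted p under 0.05. Of 13 dynein and dynactin genes, the motor on which TRIM58 acts, 0 were called, and 2 had an unadjusted p under 0.05. Of the 125 partner genes, 0 were called among the libraries rich in 18S sequence or with the hemoglobin share as a covariate. The number of all genes called there is not given here. Leaving out early 4, late 3 or late 5 left 6 calls, late 1 or late 4 left 7 and early 5 left 8.

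**Figure D5:**
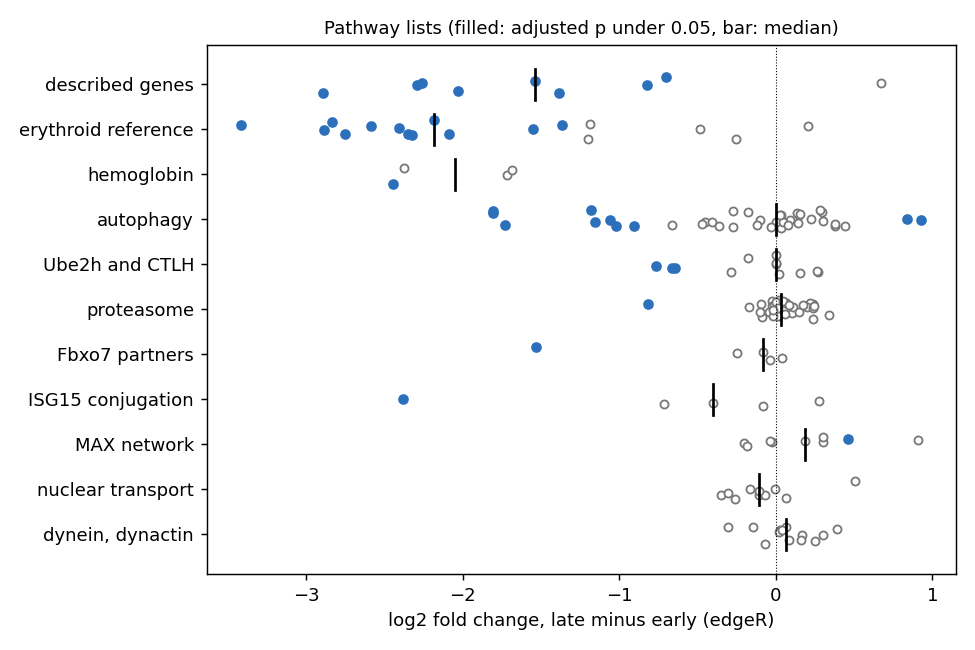
Log2FC between late and early ND of the genes in each list, 1 point per gene, filled where the adjusted p was under 0.05, with a bar at the list's median. The 9 described genes and the erythroid and hemoglobin lists have medians of -1.54, -2.18 and -2.05, and the medians of the 8 partner lists lie between -0.40 and 0.19.

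Against untreated mice, 11 of the 125 partner genes were lower after late ND and 0 were higher, against 2.01% and 0.989% of the 13547 genes tested. They included 9 autophagy genes, among them Gabarapl2 (log2FC -1.93, SE 0.35, edgeR adjusted p = 0.0242), and Isg15 (-2.01, SE 0.42, edgeR adjusted p = 0.0271). Between early ND and untreated mice 0 of 124 were called by edgeR, with 4 lower and 1 higher at an unadjusted p under 0.05. Over all 12151 genes tested, 0% were called, and 2.33% were lower and 2.11% higher at that unadjusted p.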

How the data were processed

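Total RNA of whole blood was sequenced from 15 mice. The authors deposited, for each mouse, the number of read pairs that HTSeq assigned to each gene, as raw counts without normalisation. The submitters' processing notes name STAR 2.7.9, SAMtools 1.7 and HTSeq 0.13.5. The labels' protocol gives GRCm39 as the aligned genome, while the processing notes also list mm10. The annotation release and the strand setting were not given in the sources used here. Of 55416 identifiers, 54749 matched GENCODE M39 (GRCm39), which gave symbols and coordinates, and 230 of 232 listed symbols were found.

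Groups were taken from the labels. Each pair of groups was tested in R 4.3.3 with edgeR 4.0.16 (filterByExpr, TMM, quasi-likelihood test, Benjamini-Hochberg adjustment over all tested genes, threshold 0.05). Correlations used log2 CPM with a prior count of 2 and genes with a mean of at least 5 CPM. DESeq2 1.42.0, other scalings and filters, a replicate block, a fit of all 15 libraries, the hemoglobin share as a covariate, the libraries rich in 18S sequence and leaving out each mouse were alternatives. On simulated data for late against early ND, edgeR recovered 199 of 200 genes changed by 2 on the log2 scale, with 10 false calls among 13033 genes. DESeq2 recovered 200 of 200, with 28 false calls among 13315 genes. The changed genes were drawn from well-counted ones, and all others kept the same mean level in both groups. The recovery does not bear on genes as scarce as Trim58 (9 to 37 counts), or on differences as small as those of Ulk1, Xpo7 and Mxi1. No 2 libraries of a group agreed within sampling noise (smallest chi-square per degree of freedom 15.6).

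The text names all 9 members, up to 4 called genes with the smallest p per partner list, and the 3 genes nearest to each member by within-group correlation, except 1 item that is not reported here. Other list genes are named with their values as uncalled partners or examples and were chosen after their values were seen. The members and lists were chosen with earlier results of these data known. Promoter windows were 250 bases long.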

Additional observations from a re-analysis of the deposited data

How the results depend on the processing

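Trim58 had the fewest counts, 9 to 37 per library. The number of genes called among the 9 between late and early ND was 8, and it was 5 with library totals, 0 among the libraries rich in 18S sequence, 0 with the hemoglobin share as a covariate and 3 to 9 with a mouse left out. Against untreated mice the 6 calls became 0 among the libraries rich in 18S sequence, 0 with the covariate and 0 to 8 with a mouse left out. Calls over all genes moved as well with a mouse left out, with 106 to 553 lower between late and early ND. Against untreated mice they were 0 to 409 lower. The 0 calls between early ND and untreated mice held under all alternatives run. The 4 calls relative to the erythroid list became 2 with its median, 1 with a replicate block, 1 among the libraries rich in 18S sequence and 1 to 4 with a mouse left out. The 17 partner genes became 103 with library totals, which called 137 genes lower and 8908 higher in all. They became 10 with a replicate block, 0 among the libraries rich in 18S sequence, 0 with the covariate and 6 to 22 with a mouse left out. The other alternatives kept these counts within 1.5 times. The fits among the libraries rich in 18S sequence and with a mouse left out also had fewer mice. For the 18S-rich libraries and the covariate, the number of all genes called is not given here. The cause of these changes was not tested.

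Equal replicate numbers were not taken to pair the mice. The correlation of their deviations from the group means ran from -0.17 to 0.46 between late and early ND, with 1 of 5 pairs above 0.1. Between late ND and untreated mice it ran from 0.031 to 0.58 (mean 0.24), with 4 of 5 pairs above 0.1 and 3 of 5 mice closest to their own number, a hint of pairing that the labels do not give. With the replicate block, 7 of the 9 genes were called between late and early ND (6 lower, 1 higher) and 7 between late ND and untreated mice, where 6 were called without it. Over all 13315 genes tested between late and early ND, the fit with the block called 305 lower and 368 higher. Its count over all genes against untreated mice is not given here.

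Log2FC of single genes changed sign as follows. Between late and early ND, Xpo7 was 0.14 and Mxi1 0.20 with library totals, and Trim58 was 0.081 and Fbxo7 0.098 with the hemoglobin covariate. Between late ND and untreated mice, Xpo7 was 0.20 and Mxi1 0.35 with library totals, and Ulk1 was -0.097 and Ube2o 0.083 with the covariate. Relative to the hemoglobin genes Ube2o was 0.050. Between early ND and untreated mice, none of which was called, Ube2o was 0.27 and Xpo7 0.065 with library totals, 0.35 and 0.011 with the replicate block, and Ube2o was 0.12 with the covariate. Among the libraries rich in 18S sequence, Bnip3l was -0.048, Trim58 -0.11 and Ube2l6 -0.11. With a mouse left out, the log2FC between early ND and untreated mice ran from -0.24 to 0.44 for Bnip3l, -0.016 to 0.41 for Fbxo7, -0.036 to 0.18 for Mxi1, -0.10 to 0.58 for Trim10, -0.18 to 0.37 for Trim58, -0.31 to 0.51 for Ube2l6, -0.31 to 0.66 for Ube2o and -0.20 to 0.21 for Xpo7.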

Other observations

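Markers of red cell immaturity were also measured, as a list of 6 genes. With TMM normalisation, edgeR called 2.48% of all genes lower between late and early ND, and 2.01% between late ND and untreated mice. Of the 6, 1 was called lower between late and early ND, and the median log2FC of the list was -0.71. That gene was Cd36, a scavenger receptor of erythroid precursors and of other blood cells, at 12.4 ± 2.24 CPM in late ND mice against 49.8 ± 26.3 CPM in early ND mice (SD, n = 5 each; log2FC -2.04, SE 0.34, edgeR adjusted p = 0.0126). Tfrc, the transferrin receptor that reticulocytes lose as they mature, had 13.9 ± 4.40 against 23.8 ± 5.60 CPM (SD, n = 5 each) and just missed the threshold (log2FC -0.81, SE 0.22, edgeR adjusted p = 0.0519). Of the proliferation genes, Top2a (log2FC -0.99, SE 0.28) and Mki67 (log2FC -0.61, SE 0.22) were not called, and neither were Kit (log2FC 1.18, SE 0.69), at 5.65 ± 4.14 against 2.28 ± 2.16 CPM (SD, n = 5 each), and Itga4 (log2FC -0.020, SE 0.12). Against untreated mice both Cd36 (log2FC -1.74, SE 0.28, edgeR adjusted p = 0.0242) and Tfrc (log2FC -0.76, SE 0.19, edgeR adjusted p = 0.0486) were called lower after late ND. These genes were singled out after their values were seen.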
